A study of Mus musculus with 10 samples.

Results

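The 10 integrin subunit genes described here are *Itga1*, *Itga2*, *Itga3*, *Itga5*, *Itga6*, *Itga9*, *Itgav*, *Itgb1*, *Itgb3* and *Itgb4*, taken by name from the 46517 Ensembl genes in the count tables of mouse ear skin endothelium. They were described in lymphatic endothelial cells (LECs), in the valve cells among them and in blood endothelial cells (BECs). Single cells had been sorted from ear skin into 384-well plates and sequenced along their whole cDNA with Smart-Seq2, which carries no molecular barcodes. The 5 mutant mice carried *Pik3ca*H1047R, an activating allele of the p110α catalytic subunit of PI3K, with *Cdh5*-CreERT2, whose promoter is active in all endothelium, so that LECs and BECs could both recombine. They had received 4-hydroxytamoxifen (4-OHT) on the ear at 3 weeks of age and were analysed at 5 weeks. Both controls were also 5 weeks old but differ in origin and treatment: control 1 is a C57BL/6J mouse that received no 4-OHT, and control 2 is a littermate that lacked Cre and did receive it. The third control was not analysed here.

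Integrins are heterodimers of an α and a β chain that tie the cytoskeleton to the extracellular matrix and signal on binding it. ITGB1 pairs with the collagen-binding chains ITGA1 and ITGA2, the laminin-binding chains ITGA3 and ITGA6, the fibronectin receptor chain ITGA5, with ITGA9 and with ITGAV. ITGB4 pairs only with ITGA6, and ITGB3 pairs with ITGAV in endothelium. In lymphatic vessels ITGA9 is known for its part in valve leaflets, where it binds fibronectin with the EIIIA domain.

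The plates held 99738886–151102969 reads each (7 mutant and 2 control plates), and 3248 of 3456 wells passed the cell limits. A cell was taken as a LEC where *Prox1*, *Flt4* and *Mmrn1* summed to at least 300 CPM (reads of a gene scaled to the sum of all reads) and exceeded *Flt1*, *Emcn* and *Podxl*. It was taken as a BEC where the latter sum was larger, and a LEC with at least 300 CPM of *Cldn11* was taken as a valve LEC. This gave 1283 LECs, 189 of them valve LECs, and 1215 BECs from mutant mice, and 358, 42 and 327 from control mice, with 65 cells in neither class. The other LEC markers *Lyve1*, *Pdpn*, *Reln* and *Ccl21a* summed to 4721–4822 CPM in control LECs, 3210–4179 in mutant LECs and 71.0–464 in BECs. The other BEC markers *Cd34*, *Ly6c1*, *Sox17* and *Plvap* summed to 5377–6701 in BECs and 758–1238 in LECs. The valve markers *Foxc2*, *Gata2* and *Gja4* summed to 1366–2118 in valve LECs and 465–903 in the remaining LECs. Reads were summed per mouse, and the mouse was the replicate. LEC sums held 55616045–194353210 reads, valve LEC sums 5906709–21490524 from 19–57 cells, and BEC sums 39610940–102714572. The plates of mutants 1–4 belong to another number series than those of mutant 5 and both controls, so apart from mutant 5 genotype and plate series cannot be told apart. The tables hold no transgene transcript, so recombination was not checked in single cells. Spike-in RNA took 0.723–0.897% of the reads on control plates and 0.217–0.467% on mutant plates, and levels here are shares of all gene reads of a population, not RNA amounts per cell. In sums over cells, a higher level per cell and more cells with the RNA cannot be told apart. Fibroblast markers moved with genotype, at 193–382 CPM in control and 15.8–106 in mutant LECs and at 570–769 and 12.8–53.8 in BECs, and mural markers were at 98.1–133 and 35.9–64.6 in LECs and at 540–896 and 156–455 in BECs. Schwann cell markers were at 18.1–68.4 CPM in control and 0.270–11.1 in mutant LECs, and platelet markers at 6.05–6.94 and 16.9–43.9 in LECs and at 7.28–10.7 and 14.2–20.8 in BECs. Cell-cycle markers were at 54.8–80.0 CPM in control and 388–673 in mutant LECs, and at 12.7–31.3 and 96.3–453 in BECs. The part of these differences in the results was not tested, except where a value without those cells is given.

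*Itgb1* had the highest level per exon length in all 3 populations, so that the shared β chain stood above every α chain. Levels are given here as RPKM, which scales CPM by the exon length in kilobases, as the mean ± SD of all 7 mice. In LECs the order was *Itgb1* with 241 ± 60.1 RPKM, *Itga5* with 68.5 ± 19.7, *Itgb4* with 61.6 ± 14.8, *Itga9* with 38.3 ± 10.4, *Itga6* with 20.7 ± 5.97, *Itga3* with 13.3 ± 7.22 and *Itgb3* with 11.7 ± 6.08. *Itga1* with 4.10 ± 1.01, *Itgav* with 3.66 ± 0.766 and *Itga2* with 0.129 ± 0.147 RPKM were lowest. The mean is mostly that of the 5 mutants. In the 2 controls alone *Itgb4* (43.6 ± 5.95 RPKM) stood before *Itga5* (40.6 ± 0.875) and *Itgb3* (7.82 ± 4.83) before *Itga3* (5.29 ± 2.76). Among the neighbours in the order of all 7 mice the ranges of mean ± SD overlapped for *Itga5* and *Itgb4*, *Itgb4* and *Itga9*, *Itga6* and *Itga3*, *Itga3* and *Itgb3*, and *Itga1* and *Itgav*. In valve LECs *Itgb4* at 77.9 ± 38.0 RPKM came next after *Itgb1* and before *Itga5* at 68.0 ± 25.4, and these ranges overlapped. In BECs *Itgb1* (193 ± 42.2 RPKM) was followed by *Itga5* (112 ± 32.2), *Itgb4* (50.7 ± 11.3), *Itga6* (34.2 ± 1.69), *Itga3* (21.8 ± 6.81), *Itga1* (19.8 ± 7.45) and *Itga9* (5.92 ± 1.88). *Itgb3* (2.86 ± 3.42), *Itga2* (2.26 ± 1.69) and *Itgav* (0.936 ± 0.292 RPKM) closed that order, with overlapping ranges between the neighbours *Itga3* and *Itga1*, *Itga9* and *Itgb3*, *Itgb3* and *Itga2*, and *Itga2* and *Itgav*. In control BECs alone *Itga1* (29.2 ± 1.29 RPKM) was above *Itga3* (14.3 ± 1.67) without overlap, while *Itga6* (35.8 ± 1.33) and *Itgb4* (34.9 ± 5.77) were in the opposite order and overlapped. The exon length the files give for *Itga1* is 5984 bases, against 18599 in the GENCODE vM21 annotation used for names. For *Itga2* it is 4214 against 7133 and for *Itga5* 4379 against 4933. The levels per length of these genes would be lower by that annotation. The places of *Itga1* before *Itgav* and of *Itga5* before *Itgb4* in LECs therefore depend on the lengths used. So does the place of *Itga1* above *Itga3* in control BECs, which is reversed with the GENCODE vM21 lengths.

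**Figure D1:**
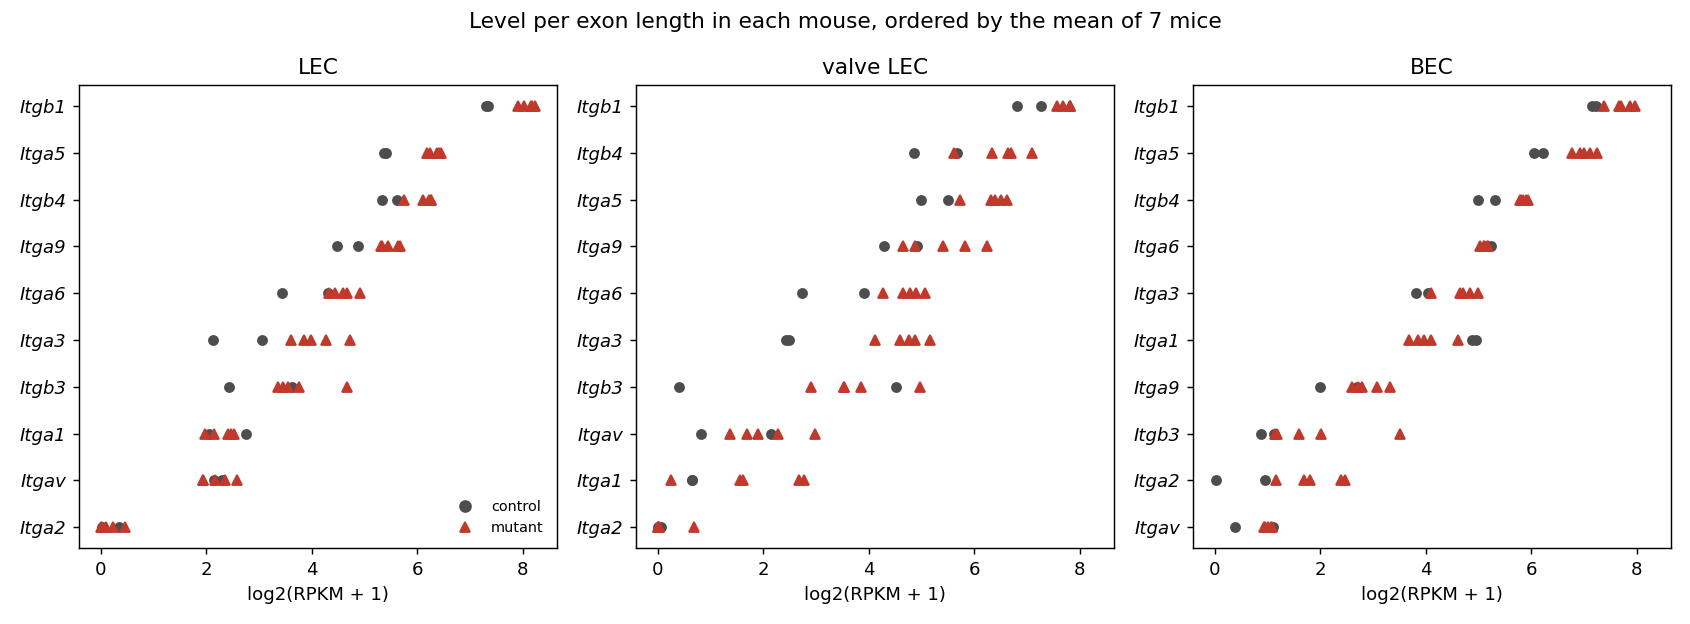
Level of each integrin subunit per exon length in LECs, valve LECs and BECs, on the x axis as log2(RPKM + 1), with 1 point per mouse and genes ordered by the mean of 7 mice. *Itgb1* is highest in every population, and *Itga9*, *Itgb3* and *Itgav* stand lower in the BEC order than in the LEC order.

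The lymphatic and blood endothelium of the same mice differed in the levels of their α chains. All 10 genes passed the test between LECs and BECs of the same mouse (edgeR quasi-likelihood test with mouse as a block, adjusted p under 0.05 over all genes), 5 higher and 5 lower in LECs. Over all 17650 genes tested, 14.3% were higher and 12.2% lower, and the median log2 fold change was −0.21 for the 10 genes and 0.02 for all. *Itga9* was at 162–383 CPM in LECs and 23.2–69.1 in BECs, higher in LECs of 7 of 7 mice by 3.87- to 9.56-fold (log2 fold change 2.71 ± 0.18 SE, adjusted p = 9.86e-06). *Itgb3* was higher in LECs by 2.46 ± 0.27 (adjusted p = 0.000149) and its partner *Itgav* by 2.03 ± 0.26 (adjusted p = 0.000417), each in 7 of 7 mice. Platelets also carry ITGB3, and platelet markers summed to 6.05–43.9 CPM in LECs and 7.28–20.8 in BECs. These 3 genes kept their call in all 19 alternatives.

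The collagen receptor chain *Itga1* was on the blood side, at 17.6–34.5 CPM in LECs and 70.8–180.1 in BECs, lower in LECs of 7 of 7 mice (−2.21 ± 0.18, adjusted p = 3.03e-05). Mural markers summed to 35.9–133 CPM in LECs and 156–896 in BECs, keratinocyte markers to 78.6–403 and 20.0–1282, and the part of mural cells in *Itga1* was not tested. Without cells with keratinocyte reads its value was −2.23 (adjusted p = 5.63e-05). *Itga6* (−0.78 ± 0.16, adjusted p = 0.00607) and *Itga5* (−0.71 ± 0.08, adjusted p = 0.000209) were also lower in LECs of 7 of 7 mice, and *Itga3* in 6 of 7 (−0.87 ± 0.22, adjusted p = 0.0179). *Itga1*, *Itga5* and *Itga6* were called in 19 of 19 alternatives and *Itga3* in 18. Keratinocytes also express *Itga3*, *Itga6* and *Itgb4*. A fit without cells with keratinocyte reads is among these alternatives, and the call of *Itga6* held in it. *Itga2* was lower in LECs by −5.05 ± 1.61 (adjusted p = 0.0464), but its LEC sums held few reads and control 2 went the other way, with 1.11 CPM in LECs and 0.0933 in BECs. Its call held in 12 of 19 alternatives (adjusted p = 1.73e-07 to 0.113) but among the fits that left out a mouse only without control 2 (0.00628) or mutant 1 (0.045). Without control 1 and mutants 2–5 its adjusted p was 0.103, 0.109, 0.113, 0.0971 and 0.107. The 2 β chains with small differences were *Itgb1*, higher in LECs of 7 of 7 mice by 1.03- to 1.44-fold (0.31 ± 0.08, adjusted p = 0.0178), and *Itgb4*, higher in 6 of 7 (0.28 ± 0.07, adjusted p = 0.0215). *Itgb1* was called in 11 and *Itgb4* in 12 of 19 alternatives, with adjusted p of 0.012 to 0.31 and 0.00549 to 0.356. The call of *Itgb1* was lost without mutant 1 (adjusted p = 0.0648), mutant 3 (0.058) or mutant 5 (0.0544). That of *Itgb4* was lost without control 1 (adjusted p = 0.0658), mutant 1 (0.0832), mutant 2 (0.0679) or mutant 5 (0.0699).

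**Figure D2:**
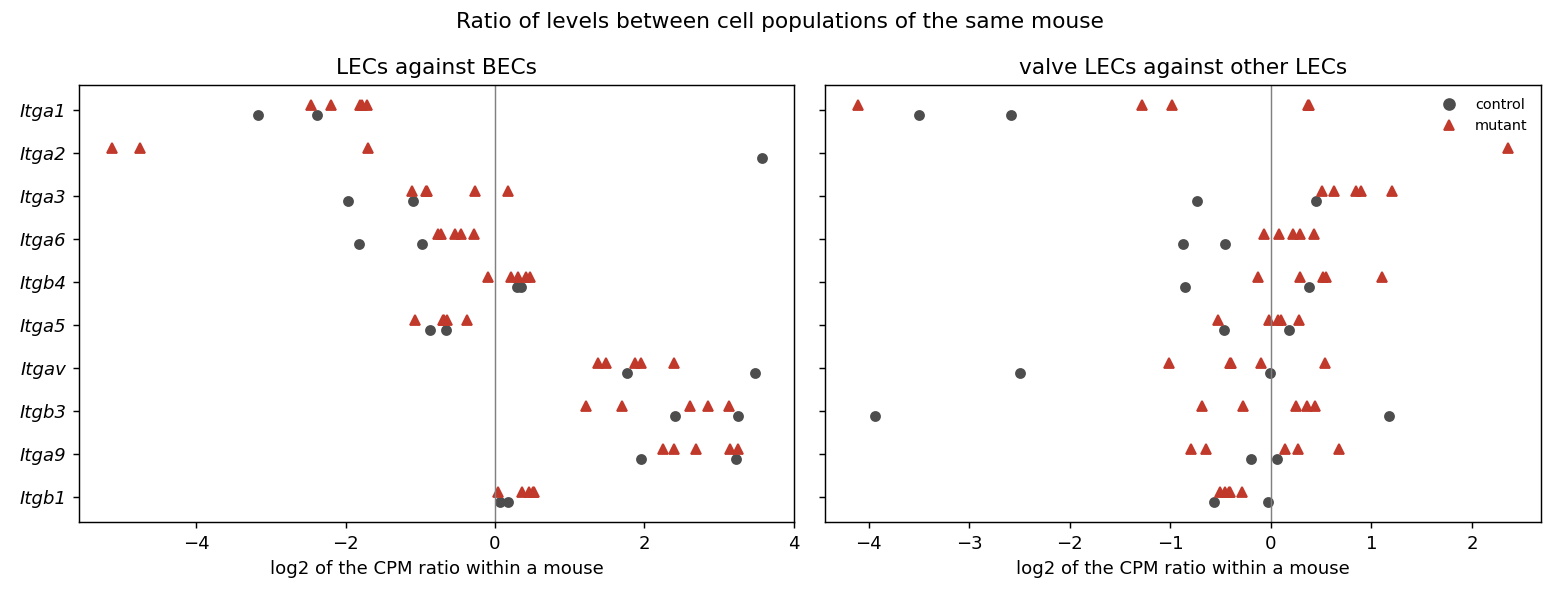
Ratio of the CPM level between populations of the same mouse for each integrin subunit, on the x axis as log2, with 1 point per mouse: LECs over BECs in one panel and valve LECs over the remaining LECs in the other. *Itga9*, *Itgb3* and *Itgav* lie right of 0 in 7 of 7 mice and *Itga1*, *Itga5* and *Itga6* left of 0 in the LEC over BEC panel.

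Between valve cells and the remaining LECs of the same mouse, none of the 9 integrin genes that could be tested passed an adjusted p of 0.05. *Itga2* was too low to test there. Over all 15296 genes tested, 0.837% were higher and 0.582% lower in valve LECs. *Itga9*, which valve leaflets are known to need, was at 143–575 CPM in valve LECs and 165–361 in the rest, higher in 4 of 7 mice (0.01 ± 0.18, adjusted p = 0.991). *Itgb1* was lower in valve LECs of 7 of 7 mice, by 0.674- to 0.979-fold (−0.31 ± 0.09, adjusted p = 0.133). *Itga3* was higher in 6 of 7 mice (0.63 ± 0.22, adjusted p = 0.216), including 5 of 5 mutants, and *Itga1* lower in 5 of 7 (−1.56 ± 0.68, adjusted p = 0.337). At an unadjusted p under 0.05 there were these 3 genes, and DESeq2 called *Itga3* and *Itga1*. Without control 1 both *Itgb1* (−0.38, adjusted p = 0.0429) and *Itga3* (0.81, adjusted p = 0.045) passed. The median log2 fold change of the 9 genes was 0.01, against −0.19 for all genes.

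Mutant LECs had higher levels of *Itga5* and *Itgb1*, the chains of the fibronectin receptor, and of *Itga9* than control LECs, as shares of all gene reads. These 3 genes passed the test, and no member was lower at an adjusted p under 0.05. Of all 19751 genes tested, 1.96% were higher and 0.8% lower. The groups of mice did not overlap for 6 of the 10 genes (*Itga3*, *Itga5*, *Itga6*, *Itga9*, *Itgb1* and *Itgb4*), each higher in mutants, and for none lower. Over all genes 12.5% were higher and 12.7% lower without overlap. The median log2 fold change was 0.78 for the 10 genes and −0.01 for all genes tested. With plate series as a term the log2 fold change was 1.05 for *Itga5* (adjusted p = 0.0487), 0.96 for *Itgb1* (adjusted p = 0.0544) and 0.84 for *Itga9* (adjusted p = 0.174).

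*Itga5*, the α chain of the fibronectin receptor, was at 175 and 181 CPM in LECs of controls 1 and 2 and at 367, 314, 378, 325 and 358 in mutants 1–5. The lowest mutant was well above both controls, with means of 348 ± 27.5 and 178 ± 3.83 (SD, n = 5 and 2). The log2 fold change was 1.02 ± 0.13 (SE, adjusted p = 0.0107), and the call held without each of the 7 mice (adjusted p = 0.0191 to 0.0496). It was lost in 3 of 19 alternatives: with the replicate number as a block (0.96, adjusted p = 0.319), without the *Ptx3*-positive LECs (0.99, adjusted p = 0.0734) and without cycling cells at their own depth (0.90, adjusted p = 0.122). Adjusted p over all 19 ranged from 2.16e-11 to 0.319. With each cell thinned to 50000 reads, 54.9–55.7% of control and 66.8–86.4% of mutant LECs had a read of *Itga5*.

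*Itgb1*, the β chain of that receptor, was at 639 and 653 CPM in control LECs and at 970.5, 1054, 1164, 1178 and 1222 in mutants 1–5. The groups were far apart (646 ± 9.96 and 1118 ± 103, SD), and the log2 fold change was 0.84 ± 0.13 SE at an adjusted p of 0.0191. The call held in 11 of 19 alternatives (adjusted p = 1.01e-06 to 0.391) and without mutant 1, 2 or 5, but not without control 1 (adjusted p = 0.0644), control 2 (0.054), mutant 3 (0.0574) or mutant 4 (0.0542), where the log2 fold change was 0.81 to 0.89. At the fixed depth of 50000 reads, 53.1–54.6% of control and 66.3–86.4% of mutant LECs had reads of both *Itga5* and *Itgb1*.

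*Itga9* was at 162 and 217 CPM in control LECs and at 371.5, 302, 296, 383 and 329 in mutants 1–5. The groups did not overlap (190 ± 38.8 and 336 ± 39.6, SD), and the log2 fold change was 0.88 ± 0.16 (SE, adjusted p = 0.0327). The call held in 9 of 19 alternatives (adjusted p = 3.06e-05 to 0.377) and only without control 2 or mutant 5 among the 7 fits without a mouse. Without control 1 the log2 fold change was 0.75 (adjusted p = 0.095), and without mutants 1, 2, 3 and 4 adjusted p was 0.065, 0.0581, 0.069 and 0.0698. Without the *Ptx3*-positive LECs it was 0.57 (adjusted p = 0.213). Reads of *Itga9* were seen in 49.7–65.1% of control and 73.8–88.0% of mutant LECs at the fixed depth.

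**Figure D3:**
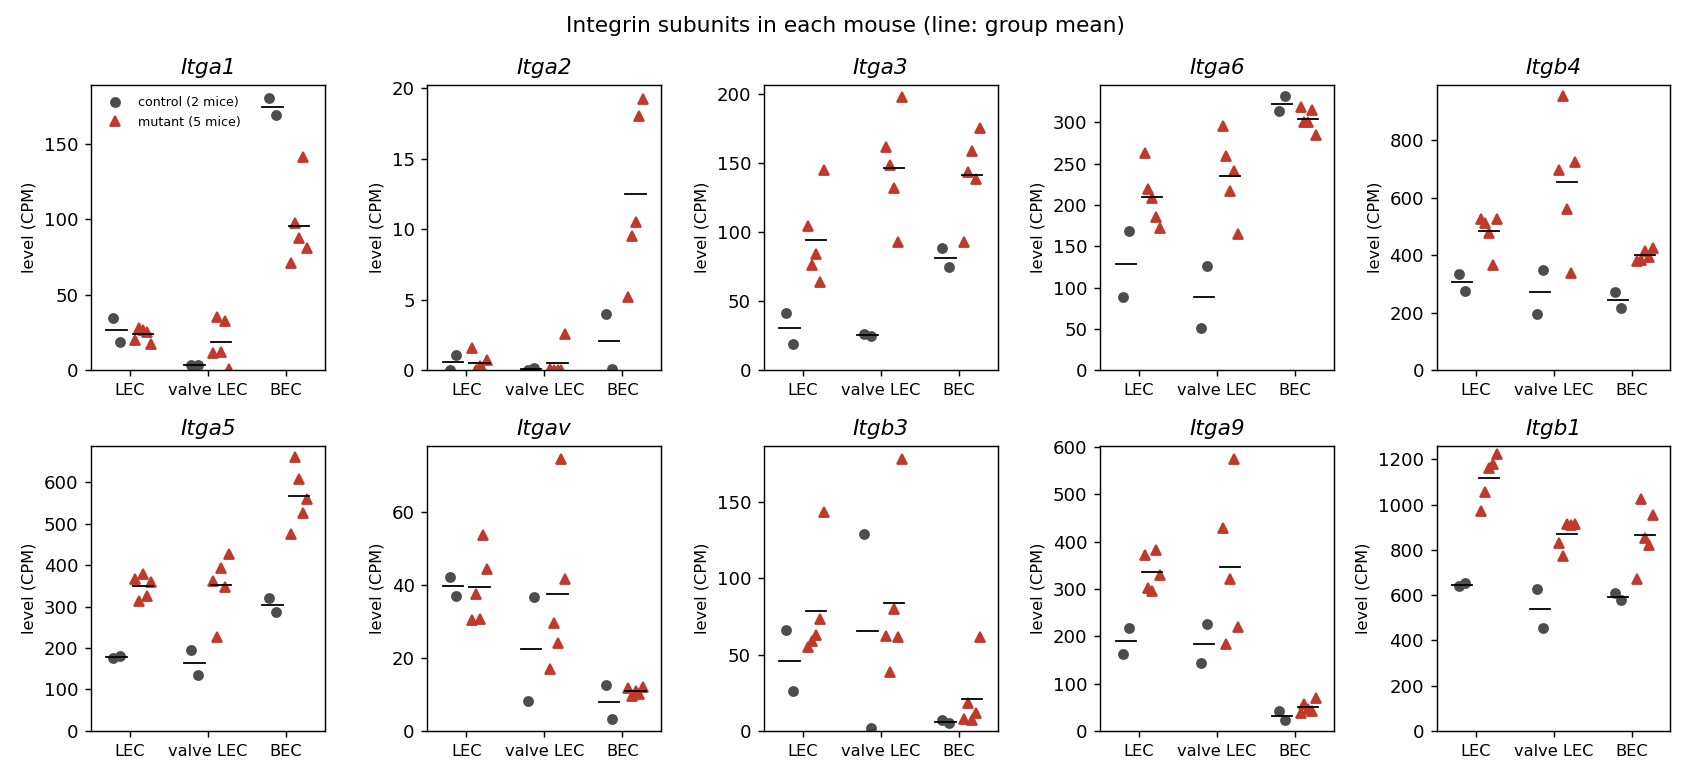
Level of each integrin subunit in CPM (y axis, from 0) in LECs, valve LECs and BECs of each mouse, with circles for the 2 control mice, triangles for the 5 mutant mice and a line at the group mean. For *Itga3*, *Itga5* and *Itgb1* every mutant mouse lies above both controls in all 3 populations, and for *Itga1* every mutant mouse lies below both controls in BECs.

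The *Itga5* and *Itgb1* promoters are shown because these genes encode the 2 chains of 1 receptor and were both higher in mutant LECs. Each sequence is the 250 bases before the gene start from RefSeq on GRCm38.p6, 5′ to 3′ on the strand of the gene, with *Itga5* at chr15:103366792-103367041 on the minus strand and *Itgb1* at chr8:128685404-128685653 on the plus strand. Capitals mark matches, on either strand, to the GC box GGGCGG or to the TEAD motif GGAATG.
Itga5: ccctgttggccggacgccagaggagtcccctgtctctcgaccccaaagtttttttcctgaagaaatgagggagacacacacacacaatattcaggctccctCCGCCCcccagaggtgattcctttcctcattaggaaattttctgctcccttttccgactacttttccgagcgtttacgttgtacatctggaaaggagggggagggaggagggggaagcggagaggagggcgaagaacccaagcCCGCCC
Itgb1: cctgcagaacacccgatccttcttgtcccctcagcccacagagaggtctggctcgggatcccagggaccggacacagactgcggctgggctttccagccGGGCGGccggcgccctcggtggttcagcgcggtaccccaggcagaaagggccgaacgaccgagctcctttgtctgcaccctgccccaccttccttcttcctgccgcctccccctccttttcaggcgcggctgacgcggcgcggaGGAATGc
The *Itga5* window was 55.6% G or C and held 2 GC boxes on the strand opposite to the gene, starting 149 and 6 bases before the gene start. The *Itgb1* window was 68.0% G or C and held 1 GC box 151 bases and 1 TEAD match 7 bases before the start. Over windows of that length in 32851 promoters, 32.7% held a GC box and 12.6% the TEAD motif. The AP-1 motif TGANTCA (in 6.75% of promoters) and the FOXO motif TGTTTAC (in 3.17%) had no match in either window. Of the 10 genes, 7 had an entry in the promoter table, and *Itga6*, *Itgb3* and *Itgb4* are only named here.

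The other integrin genes of LECs did not pass the test. Among laminin-binding chains, *Itga3* was at 41.4 and 19.1 CPM in controls and at 104, 76.3, 84.0, 63.8 and 145 in mutants 1–5, above both controls in 5 of 5 (1.67 ± 0.42, adjusted p = 0.0746). *Itgb4*, which anchors to plectin and is known from hemidesmosomes, was at 335 and 276 CPM in controls and at 527.6, 514, 479, 368 and 527.9 in mutants (0.70 ± 0.18, adjusted p = 0.0736). *Itga6* was at 88.7 and 169 CPM in controls and at 263, 219, 208, 186 and 172 in mutants, with mutant 5 just above control 2 (0.76 ± 0.25, adjusted p = 0.142). All 3 laminin-binding chains thus had mutants above both controls, by small margins for *Itga6* and *Itgb4*. DESeq2 put *Itga3*, *Itgb4* and *Itga6* past the threshold, and the stricter LEC and BEC limit did so for *Itga3* (2.36, adjusted p = 0.0301, against a range of 0.000463 to 0.355). Keratinocytes also express these 3 genes, and keratinocyte markers summed to 207–403 CPM in control and 78.6–388 in mutant LECs. Without cells that had keratinocyte reads the log2 fold change in LECs was 1.72 for *Itga3*, 0.79 for *Itga6* and 0.70 for *Itgb4* (adjusted p = 0.0617, 0.121 and 0.0623). At 50000 reads per cell, 34.4–41.1% of control and 47.1–71.7% of mutant LECs had reads of both *Itga6* and *Itgb4*.

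*Itgb3*, the β chain of the vitronectin receptor, was at 66.3 and 26.0 CPM in control LECs and at 54.7, 58.7, 62.9, 73.5 and 143 in mutants, so the groups overlapped (0.79 ± 0.49, adjusted p = 0.4). Platelet markers were also highest in LECs of mutant 5, at 43.9 CPM, and their part in *Itgb3* was not tested. Its partner *Itgav* was at 42.3 and 36.9 CPM in controls and 30.3–53.6 in mutants (0.03 ± 0.28, adjusted p = 0.963). *Itga1* was at 34.5 and 18.7 CPM in controls and 17.6–28.2 in mutants (−0.13 ± 0.33, adjusted p = 0.864). *Itga2* was at 0.0358 and 1.11 CPM in controls and 0.0170–1.60 in mutants, from as few as 1 read per mouse, so that no difference was detectable at this depth. The mean number of the 10 genes with a read, per LEC at 50000 reads, was 4.09–4.13 in control and 4.66–5.97 in mutant mice.

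In mutant BECs *Itga5* and *Itgb4* were higher than in control BECs, and no member was lower at an adjusted p under 0.05. Of all 19471 genes tested, 1.36% were higher and 0.508% lower. The groups of mice did not overlap for *Itga2*, *Itga3*, *Itga5*, *Itgb1*, *Itgb3* and *Itgb4* (6 genes, each higher) and for *Itga1* (1 gene, lower), against 12.2% higher and 12.6% lower over all genes. The median log2 fold change was 0.73 for the 10 genes and 0.01 for all.

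*Itga5* was at 322 and 286 CPM in control BECs and at 476, 662, 607, 526 and 560.5 in mutants 1–5. All mutants were above both controls (304 ± 25.3 and 566 ± 71.9, SD), and the change was 0.96 ± 0.17 SE on the log2 scale (adjusted p = 0.0385). The call held in 9 of 18 alternatives (adjusted p = 2.16e-05 to 0.261), and of the fits without a mouse only in that without mutant 5. Without control 1, control 2 and mutants 1–4 in turn, adjusted p was 0.0807, 0.136, 0.054, 0.0666, 0.0881 and 0.0616, with a log2 fold change of 0.88 to 1.09. *Itgb4* was at 273 and 216 CPM in controls and at 381, 385, 414, 394 and 426 in mutants (244 ± 40.5 and 400 ± 19.4, SD). It was higher in 5 of 5 mutants than in either control, by 0.77 ± 0.14 (SE, adjusted p = 0.0400). That call held in 8 of 18 alternatives (adjusted p = 1.41e-05 to 0.281) and without control 1 or mutant 5. Without control 2 and mutants 1–4, adjusted p of *Itgb4* was 0.124, 0.0831, 0.0888, 0.0975 and 0.074. Keratinocyte markers summed to 733–770 CPM in control and 20.0–1282 in mutant BECs. Without cells with keratinocyte reads the change of *Itgb4* was 0.84 (adjusted p = 0.0219) and that of *Itga5* was 0.97 (adjusted p = 0.0249). With plate series as a term it was 0.83 for *Itgb4* (adjusted p = 0.198) and 0.91 for *Itga5* (adjusted p = 0.26). Neither call held without cycling cells at their own depth.

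The collagen-binding chains went apart in BECs without passing the test. *Itga1* was at 180.1 and 169 CPM in controls and at 70.8, 97.4, 87.9, 141 and 81.1 in mutants, below both controls in 5 of 5 (−0.81 ± 0.25, adjusted p = 0.141, with 0.0298 to 0.435 over the alternatives). Reads of *Itga1* were seen in 47.6–50.3% of control and 32.9–42.8% of mutant BECs at the fixed depth. *Itga2* was at 4.01 and 0.0933 CPM in controls and at 5.20, 9.49, 10.5, 18 and 19.3 in mutants (2.64 ± 1.20, adjusted p = 0.279). The summed mural and fibroblast markers of BECs were also below both controls in every mutant, and the part of those cells in *Itga1* was not tested. DESeq2 called *Itga1* lower and *Itga2* higher (adjusted p = 0.0473).

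*Itgb1* was at 608 and 579 CPM in control BECs and at 673, 1023, 852, 824 and 955 in mutants (0.61 ± 0.18, adjusted p = 0.13). *Itga3* was at 88.3 and 74.8 CPM in controls and 92.6–175 in mutants (0.85 ± 0.25, adjusted p = 0.128). *Itgb3* was at 6.94 and 4.90 CPM in controls and at 7.57, 18.1, 7.16, 12 and 61.5 in mutants (1.89 ± 0.93, adjusted p = 0.308). For these 3 genes every mutant was above both controls, but the mutants were spread widely. DESeq2 called *Itgb1* (adjusted p = 0.0279) and *Itga3* (adjusted p = 0.0137). *Itga6* was at 314.2 and 331 CPM in controls and 284–319 in mutants (−0.03 ± 0.12, adjusted p = 0.928), and its groups overlapped. *Itga9* was at 41.9 and 23.2 CPM in controls and 38.9–69.1 in mutants (0.70 ± 0.32, adjusted p = 0.288), and *Itgav* at 12.4 and 3.31 and at 9.70–12.1 (0.52 ± 0.52, adjusted p = 0.627). Reads of both *Itga5* and *Itgb1* were in 51.8–64.4% of control and 73.8–86.6% of mutant BECs.

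**Figure D4:**
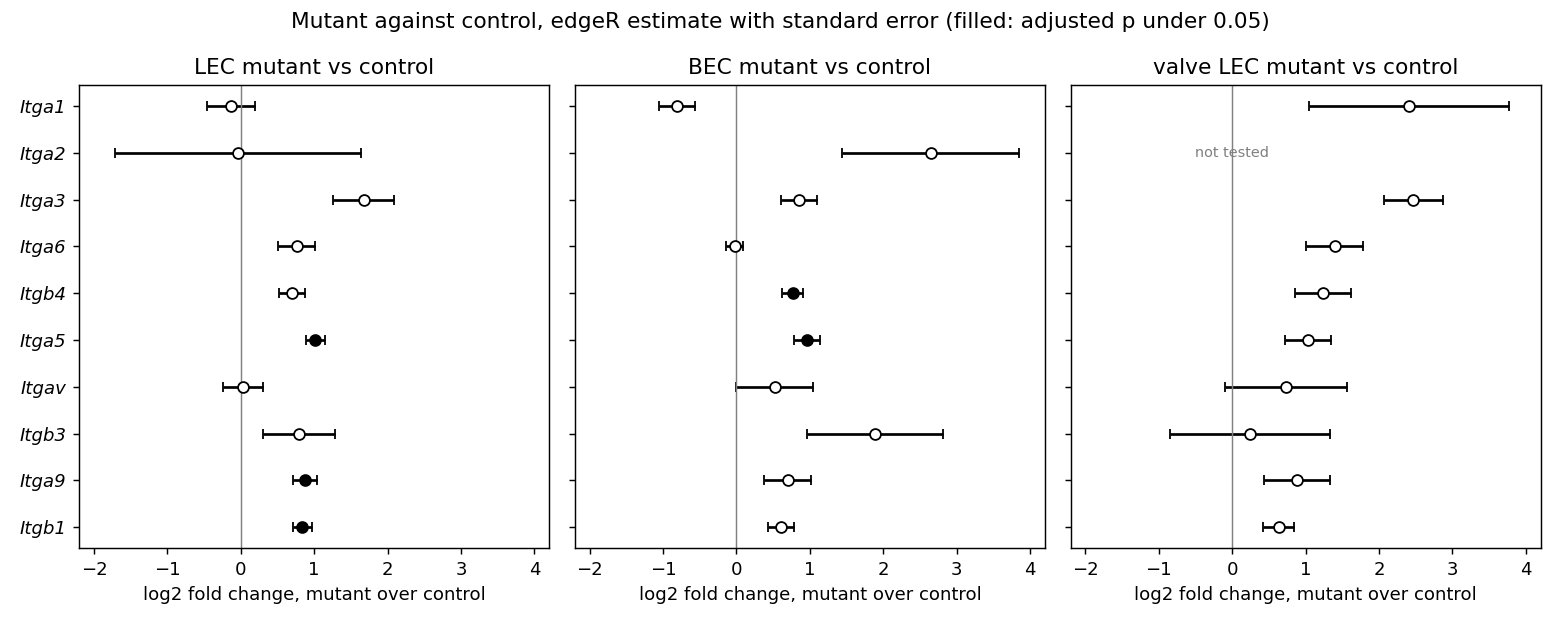
Log2 fold change of mutant over control mice (x axis) for each integrin subunit in LECs, valve LECs and BECs, as the edgeR estimate with its standard error; filled points passed an adjusted p of 0.05. *Itga5* lies near 1 in all 3 populations, filled in LECs and BECs.

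The mutant difference itself did not pass a test between LECs and BECs for any of the 10 genes, where 0.0182% of the 21993 genes tested had a larger change in LECs and 0.127% a smaller one. For *Itga5* the LEC change exceeded the BEC change by 0.04 ± 0.18 (adjusted p = 0.996), for *Itgb1* by 0.22 ± 0.15 (adjusted p = 0.664) and for *Itga9* by 0.13 ± 0.39 (adjusted p = 0.981). *Itga6* had the smallest p, with a LEC change larger by 0.81 ± 0.23 (unadjusted p = 0.00741, adjusted p = 0.232). At an unadjusted p under 0.05 there were *Itga6* and *Itga1*, and DESeq2 called *Itga6*, whose adjusted p ranged from 0.0285 to 0.7 over its 18 alternatives. *Itga1* followed with 0.75 ± 0.31 (unadjusted p = 0.0402, adjusted p = 0.412). For *Itgb4* the difference was −0.10 ± 0.16 (adjusted p = 0.918), although it was called in BECs and not in LECs.

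Valve LECs of mutant mice could not be set apart from control valve LECs by the test, since edgeR called 0 of 13941 genes (0% higher and 0% lower). At an unadjusted p under 0.05 there were 1760 genes, and DESeq2 called 915. All 9 integrin genes tested had a positive log2 fold change, with a median of 1.03 against 0.07 for all genes. The groups did not overlap for *Itga3*, *Itga5*, *Itga6* and *Itgb1* (4 genes, each higher and none lower), against 10.4% higher and 7.19% lower over all genes. *Itga3* was at 26.1 and 25.1 CPM in control valve LECs and at 162, 149, 132, 93.1 and 198 in mutants (2.47 ± 0.41, adjusted p = 0.117). *Itga6* was at 51.4 and 126 CPM in controls and at 295, 259.5, 217, 240.5 and 165 in mutants (1.4 ± 0.39, adjusted p = 0.244). *Itga5* was at 195 and 135 CPM in controls and at 363, 227, 392.5, 346 and 426 in mutants (1.03 ± 0.31, adjusted p = 0.266). In these 3 genes the higher control was below the lowest mutant. The log2 fold change was 1.24 ± 0.38 for *Itgb4* (adjusted p = 0.277), 0.89 ± 0.45 for *Itga9* (adjusted p = 0.436) and 0.63 ± 0.21 for *Itgb1* (adjusted p = 0.309). *Itga1* had the second largest value (2.41 ± 1.36, adjusted p = 0.473) from low levels, at 3.45 and 3.39 CPM in controls and 1.13–35.1 in mutants, so its groups overlapped. DESeq2 called *Itga3*, *Itga5*, *Itga6* and *Itgb4*, and the 19 alternatives for *Itga3* gave adjusted p of 7.68e-08 to 0.903. The control sums came from 23 and 19 valve cells, which limits this comparison.

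*Ptx3* marks a group of capillary LECs, and the integrins were compared between LECs with at least 40 CPM of *Ptx3* and the rest of the same mouse, as a description with no test. There were 12 and 48 such cells in controls 1 and 2, and 67, 64, 150, 77 and 179 in mutants 1–5. *Itga9* was higher in *Ptx3*-positive LECs of 7 of 7 mice, at 263–486 CPM against 153–298, by 1.32- to 1.91-fold. *Itgb1* was also higher in 7 of 7, at 760.2–1463 CPM against 608–1053, by 1.25- to 1.55-fold. *Itgb4* was lower in 6 of 7 mice (0.561- to 1.13-fold) and *Itga1* in 6 of 7 (0.161- to 1.32-fold). *Itga5* was higher in 5 of 7 mice with a median of 1.12-fold. *Ptx3*-positive cells had more reads by the median in 7 of 7 mice.

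**Figure D5:**
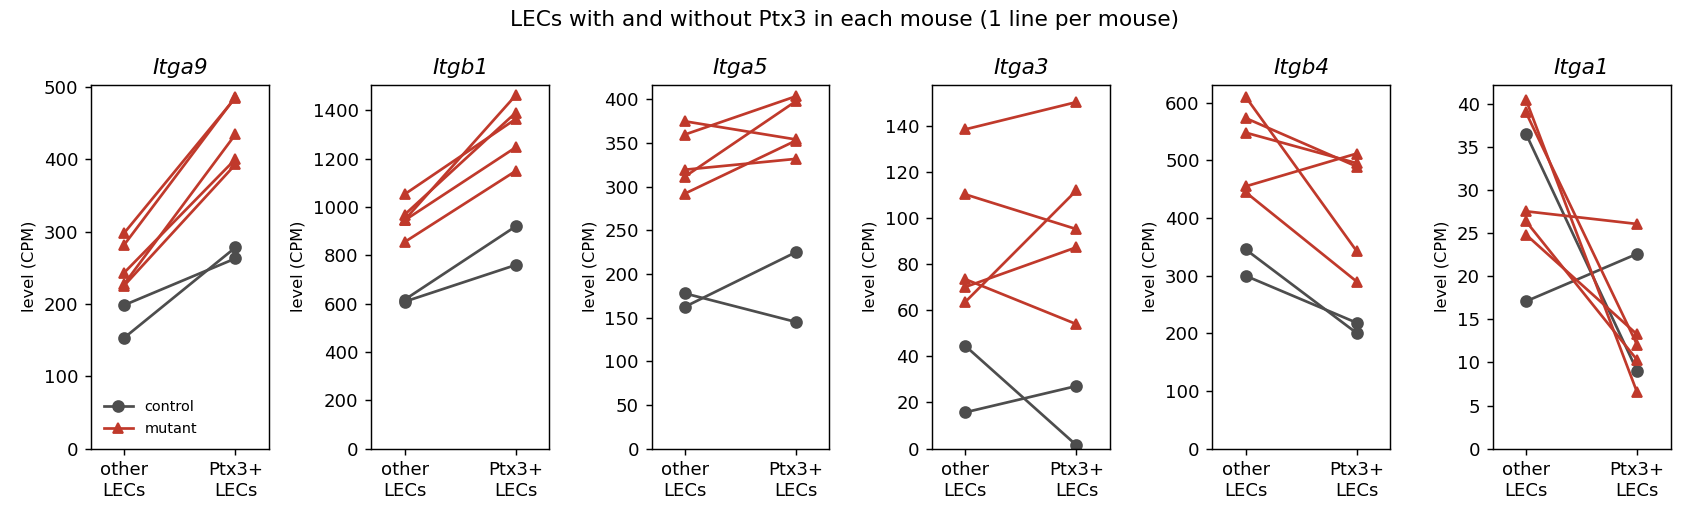
Level in CPM (y axis, from 0) of integrin subunits in LECs without and with *Ptx3* of the same mouse, joined by 1 line per mouse, with circles for controls and triangles for mutants. The lines of *Itga9* and *Itgb1* end higher at *Ptx3*-positive LECs in 7 of 7 mice.

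Cycling LECs, in which 3 or more of 7 cell-cycle genes had a read at 50000 reads, could be compared with the rest in the 5 mutant mice. *Itgb4* was lower in cycling LECs of 5 of 5 mutants (0.560- to 0.964-fold) and *Itga1* and *Itgb3* in 4 of 5. *Itga5* and *Itgb1* were higher in 4 of 5, by a median of 1.13- and 1.23-fold. Without these cells the log2 fold change of mutant over control LECs was 1.01 for *Itga5* (adjusted p = 0.0283, with the range above) and 0.80 for *Itgb1* (adjusted p = 0.0382), a choice made after the data were seen. In the planned fit, which removed cells cycling at their own depth, 0 integrins were called in LECs.

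4 groups of genes around these integrins were taken by list: other integrin subunits, cytoplasmic adhesion proteins, matrix ligands and membrane partners. The lists were chosen with earlier results of these data known, so their counts are a description and not independent of the data. Their counts in mutant LECs and BECs stand against 1.96% higher and 0.8% lower of all genes in LECs and 1.36% and 0.508% in BECs. In mutant LECs none of the 12 other integrin subunits tested passed edgeR's test (median log2 fold change −0.40), with 1 at an unadjusted p under 0.05 and 1 called by DESeq2. Of 34 adhesion proteins 2 were higher, the tensin *Tns3* (2.04 ± 0.36, adjusted p = 0.0293) and vinculin, *Vcl* (0.89 ± 0.18, adjusted p = 0.0464), and none lower (median 0.22). Of 23 matrix ligands 3 were higher and none lower (median 0.58). These were nephronectin, *Npnt* (4.6 ± 0.31, adjusted p = 0.00177), the basement membrane collagen *Col4a1* (0.81 ± 0.14, adjusted p = 0.0268) and *Emilin1*, an elastic fibre protein that binds ITGA9 (0.74 ± 0.13, adjusted p = 0.0303). None of 9 membrane partners passed, with 4 at an unadjusted p under 0.05 and 2 called by DESeq2, and the largest value was that of the tetraspanin *Cd81* (0.63 ± 0.14, adjusted p = 0.0525).

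In mutant BECs 1 of 34 adhesion proteins was higher, *Parva*, which binds integrin-linked kinase (0.90 ± 0.17, adjusted p = 0.0424). Of 22 matrix ligands *Npnt* (2.65 ± 0.27, adjusted p = 0.00545) and fibrillin, *Fbn1* (1.93 ± 0.21, adjusted p = 0.00635), were higher and the collagen *Col1a1* lower (−3.89 ± 0.56, adjusted p = 0.0172). Of 12 other integrin subunits 1 was lower, *Itga11* (−5.65 ± 0.83, adjusted p = 0.0175), a collagen receptor chain of fibroblasts. *Col1a1* is itself 1 of the 5 fibroblast markers given above, and *Itga11* moved with them. Of 9 membrane partners the tetraspanin *Cd151*, a partner of ITGA3 and ITGA6, was higher (0.81 ± 0.14, adjusted p = 0.0353). In the difference between LEC and BEC changes no gene of the 4 lists passed edgeR's test. At an unadjusted p under 0.05 there were 3 of 13 other integrin subunits, 6 of 34 adhesion proteins, 8 of 23 ligands and 2 of 9 partners, against 2480 of all 21993 genes, and DESeq2 called 3, 2, 3 and 1. None passed in valve LECs of mutant against control mice either. There the unadjusted counts were 0 of 3, 4 of 30, 10 of 18 and 4 of 9, against 1760 of 13941 genes, and those of DESeq2 were 0, 2, 6 and 1.

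Between LECs and BECs of the same mouse, 11 of 34 adhesion proteins were higher and 5 lower in LECs, against 14.3% and 12.2% of all genes, so the share lower was near that of all genes. *Lims2* (−5.98 ± 0.46, adjusted p = 2.1e-05), *Ptk2b* (−5.70 ± 0.44, adjusted p = 2.2e-05) and *Src* (3.10 ± 0.74, adjusted p = 0.013) were farthest apart. Of 21 matrix ligands 7 were higher and 6 lower. Among the 7 higher were fibronectin, *Fn1*, at 1.87 ± 0.18, *Emilin1* at 2.58 ± 0.20 and tenascin C, *Tnc*, at 1.56 ± 0.40 (adjusted p = 7.63e-05, 2.4e-05 and 0.0197). *Vwf* (−6.20 ± 0.48), *Lama3* (−4.42 ± 0.69) and *Lama5* (−2.80 ± 0.20) were lowest, with adjusted p of 2.25e-05, 0.00139 and 1.6e-05. Of 9 membrane partners 4 were higher, led by *Cd63* (1.96 ± 0.13, adjusted p = 9.27e-06), and 3 lower, led by *Slc3a2* (−0.94 ± 0.13, adjusted p = 0.000748). Of 10 other integrin subunits the leukocyte chain *Itgb2* was higher in LECs (5.61 ± 0.85, adjusted p = 0.00115). Immune cell markers summed to 8.75–45.3 CPM in LECs and 5.61–14.7 in BECs, and their part in *Itgb2* was not tested. Median log2 fold changes of these lists were 0.01, 0.14, 0.35 and −0.06, against 0.02 for all genes.

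In valve LECs against the remaining LECs, *Fn1* (1.51 ± 0.17, adjusted p = 0.00349) and the laminin *Lama5* (1.35 ± 0.19, adjusted p = 0.00935) were higher. *Tnc* (−4.12 ± 0.79, adjusted p = 0.0346) and thrombospondin, *Thbs1* (−2.87 ± 0.57, adjusted p = 0.0402), were lower, which made 2 of 21 matrix ligands in each direction, against 0.837% higher and 0.582% lower over all genes. The focal adhesion protein *Zyx* (0.51 ± 0.09, adjusted p = 0.0229) was the 1 gene of 32 adhesion proteins and *Kdr*, the VEGF receptor (0.52 ± 0.08, adjusted p = 0.0148), the 1 of 9 membrane partners that passed.

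The genes whose levels followed each integrin most closely were taken by Pearson's r over the 21 sums (7 mice and 3 populations that share mice and plates) among 10271 genes, as a description. *Itga9* followed *Sema3a* (r = 0.94), and *Itga1* followed *Ceacam1* and *Plcb1* (both 0.93). *Itgb1* followed *Lmna* (0.92) and *Itga5* followed *Trp53i11* (0.91) and *Ets2* (0.89). *Itgb3* was nearest to *Ece1* (0.90) and *Cd47* (0.89), *Itga2* to *Cadm3* (0.90), *Itga6* to *Col4a2* and *Pxdn* (both 0.89), *Itgav* to *Med9* (0.88) and *Itga3* to *Crk* (0.84). *Itgb4* was nearest to *B230344G16Rik* (0.88), which overlaps 7.66% of the *Itgb4* exon bases on the opposite strand, so without strand their reads cannot be told apart there, and then to *Cthrc1* (0.86). *Itgav* overlaps *Gm13684* over 5.90% of its exon bases on the opposite strand and *Itga1* overlaps *Gm49395* over 3.68% on the same strand.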

How the data were processed

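The deposited tables give, for each well of a plate, unnormalised read counts by gene. The authors made them by aligning reads with TopHat2 2.1.1 to GRCm38 plus a chicken PIK3CA sequence, removing duplicates with SAMtools 0.1.18 and counting with featureCounts of Subread (tools and versions from the submitters' processing notes and the methods). The annotation version is not given in the sources used here, and the tables hold no entry for the transgene. A second file gives summed exon lengths. A well was kept if it had at least 200 genes and 50000 reads and its mitochondrial share did not exceed 10%, limits taken from the study's methods, and no doublet caller was run. No well name was shared between plates and no pair of cells had identical counts. Gene names and positions came from GENCODE vM21, which held 98.9% of the Ensembl genes. The integrins and the gene lists around them were chosen with earlier results of these data known.

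Counts were summed per mouse and population and tested with edgeR 4.0.16 in R 4.3.3 (filterByExpr, TMM scaling, quasi-likelihood F test, Benjamini-Hochberg adjustment over all genes, threshold 0.05), leaving out the 7 genes of the population limits. Errors are SD over mice for levels and SE for fold changes. Nothing in the labels says that cells of 1 mouse came from separate preparations, so only mice are replicates. Named genes are the 10 integrins in every comparison, members of the lists that passed the test or had the 3 largest changes, and the 2 nearest genes by correlation among genes whose mean log2 CPM was 3 or more, of which not all are printed. Shares of cells were taken after thinning each cell to 50000 reads. Alternatives were DESeq2 1.42.0, edgeR with DESeq2 size factors, leaving out each mouse, testing without the expression filter, replicate number or plate series as a term, thinned cells, a stricter LEC and BEC limit (1 marker sum at least 5 times the other), other valve limits and subsets of cells. The removal of cells cycling after thinning and a floor of 300 CPM for BECs were chosen after seeing the data. The fits were also run on simulated counts with a single dispersion for all genes and no plate or mouse effects. That setting differs from these data, so it does not measure the error of the calls given here. Deviations of same-numbered mutant and control mice from their group means had correlations of −0.03 and −0.04 over genes for the 2 shared numbers. With 2 controls the deviations of one mirror those of the other, so these values are not separate and cannot decide whether mice were paired. No label states a pairing, and the numbers were not used as pairs. Analyses ran in Python 3.11.15 with matplotlib 3.10.9, pandas 2.3.3, numpy 2.4.6 and scipy 1.17.1.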

Additional observations from a re-analysis of the deposited data

Results flagged for a closer look

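Each integrin was screened in each population for a mutant mouse far from the other 4, which made 30 groups, and chance alone puts about 1 in 20 such groups past the limit used. In LECs *Itgb3* was at 143 CPM in mutant 5 and at 73.5 in the next mutant. In BECs *Itgb3* was at 61.5 CPM in the same mouse and at 18.1 in the next. *Itga2* in valve LECs was at 2.56 CPM in mutant 5 and at 0.0678 in the next mutant, a gene with hardly any reads there. All 3 values belong to mutant 5, the only mutant in the plate number series of the controls, with 367 LECs and 194353210 reads in its LEC sum. Platelets also carry ITGB3, and platelet markers (*Pf4*, *Ppbp*, *Gp9* and *Itga2b*) summed to 43.9 CPM in LECs of mutant 5, 16.9–29.1 in those of the other mutants and 6.05–6.94 in those of controls. In BECs they summed to 20.8 CPM in mutant 5 and 14.2–19.3 in the other mutants, and their part in *Itgb3* was not tested. Without mutant 5 the log2 fold change of *Itgb3* was 0.47 in LECs and 0.99 in BECs.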

How the results depend on the processing

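Over 1072 pairs of an integrin result and an alternative, 928 kept direction and side of the threshold, 63 kept direction but lost the call, 17 gained it and 64 changed sign, none of the latter called in either fit. The cause of these changes was not tested. With 2 control mice, the number of calls depended strongly on single mice. Leaving out 1 mouse gave 153–546 genes and 1–3 integrins called in LECs (545 and 3 with all mice), 127–532 and 0–2 in BECs (364 and 2), 0–19 and 0 for the difference of LEC and BEC changes (32 and 0), 3712–4378 and 7–10 between LECs and BECs (4678 and 10), 102–202 and 0–2 between valve and other LECs (217 and 0) and 0 in valve LECs of mutant against control mice (0). DESeq2 called 2489 genes and 6 integrins in LECs, 2162 and 6 in BECs, 1160 and 1 for the difference, 1812 and 2 in valve against other LECs and 915 and 4 in mutant valve LECs. The replicate block, which follows the numbers in the sample titles, gave 3 genes and 0 integrins in LECs and 0 and 0 in BECs. Without the replicate block of mice, valve against other LECs gave 142 genes. Plate series as a term gave 178 genes and 1 integrin in LECs and 37 and 0 in BECs. Without cycling cells at their own depth 8 genes and 0 integrins were called in LECs, 129 and 0 in BECs, 6 genes for the difference and 31 in valve against other LECs, and without cells cycling after thinning 101 genes in LECs and 14 for the difference. Without *Ptx3*-positive LECs there were 10 genes and 0 integrins in LECs and 4 genes for the difference. No expression filter gave 1 integrin in BECs, and thinned cells 1 in BECs and 1 gene in mutant valve LECs. The stricter LEC and BEC limit gave 62 genes for the difference, 91 in valve against other LECs and 1 in mutant valve LECs. A valve limit of 600 CPM gave 501 genes in valve against other LECs, and one of 100 CPM gave 31 in mutant valve LECs.

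Log2 fold changes that changed sign under some alternative, with the values of those alternatives and the range over the 7 fits without 1 mouse where such a fit was among them, were as follows. In LECs these were *Itga1* (−0.53 to 0.46 without 1 mouse, 0.099 in thinned cells, 0.25 without *Ptx3*-positive LECs and 0.030 without cells cycling after thinning), *Itga2* (−0.99 to 3.82 without 1 mouse, 0.041 with no filter, 0.30 with the replicate block, 0.40 with plate series, 3.10 without cells with keratinocyte reads and 0.24 without cells cycling after thinning) and *Itgav* (−0.11 to 0.21 without 1 mouse, −0.20 with the replicate block, −0.14 with the stricter limit and −0.027 without valve LECs). In BECs they were *Itga6* (−0.039 to 0.019 without 1 mouse, 0.0079 with no filter and 0.027 with the replicate block) and *Itgav* (−0.12 to 1.82 without 1 mouse, −0.30 without cycling cells and −0.056 without cells cycling after thinning). For the difference of LEC and BEC changes they were *Itga2* (−9.08 to 1.11 without 1 mouse), *Itga5* (−0.021 to 0.17 without 1 mouse, −0.067 without cycling cells, −0.10 with the stricter limit and −0.013 without cells cycling after thinning), *Itga9* (−0.45 to 0.72 without 1 mouse, −0.039 with the stricter limit and −0.17 without *Ptx3*-positive LECs), *Itgav* (0.017 without cells cycling after thinning) and *Itgb4* (−0.13 to 0.00047 without 1 mouse, 0.037 in thinned cells and 0.11 with the stricter limit). In valve against other LECs they were *Itga5* (−0.034 to 0.11 without 1 mouse, −0.039 with no filter, −0.00012 in thinned cells, −0.11 without cycling cells and −0.12 with the stricter limit), *Itga6* (−0.056 to 0.14 without 1 mouse, −0.036 with no filter and −0.057 without cycling cells), *Itga9* (−0.12 to 0.14 without 1 mouse, −0.055 with no filter, −0.022 without cycling cells and −0.11 with the stricter limit) and *Itgb3* (−0.38 to 0.29 without 1 mouse, 0.31 with no replicate block and 0.089 at 100 CPM). In mutant valve LECs they were *Itga1* (−1.68 with plate series) and *Itgb3* (−0.72 to 5.51 without 1 mouse and −0.24 at 600 CPM).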
